A study of Mus musculus with 3 samples.

Results

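The 10 genes of mouse chromosome X described here descend from retrotransposons, and they were followed in chromatin precipitated with an antibody against the histone demethylase LSD1 (Kdm1a): Rtl8a, Rtl8b, Rtl8c, Rtl3, Rtl4, Rtl5, Rtl9, Ldoc1 (also named Rtl7), Pnma3 and Pnma5. They were taken by name, 10 of the 1255 protein-coding and long noncoding genes that RefSeq places on the chromosome, and every listed single-base site from 5 kb before to 5 kb past each gene (its window) was counted. Their windows held 1773 of the 411952 sites that the MEF library listed, 849 of the 186844 of LowK and 461 of the 119257 of MidK. MEF were mouse embryonic fibroblasts at day 0. LowK were such fibroblasts carrying the vector SeVdp(fKOSMaB), a Sendai virus vector for reprogramming, at day 20, with no Shield1 named in the label. MidK carried the same vector, also at day 20, with 30 nM Shield1, a small molecule that protects proteins tagged with a destabilising domain from breakdown. Each group was 1 library, so no difference has a replicate check and no test was possible. No input library was used here, so reads are coverage and not enrichment, and neither the sex nor the strain of the cells is named in the labels.

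The Rtl genes derive from the Gag and Pol region of an ancient Ty3/gypsy-type retrotransposon, and the Pnma genes encode Gag-like proteins that were first known as targets of autoantibodies in paraneoplastic neurological disease. These genes lost the ability to move and were kept in mammals for functions of their own, many of them in placenta and brain. LSD1 removes methyl groups from histone tails and is known in embryonic stem cells for keeping some endogenous retroviruses silent. Its presence at a gene does not by itself give the gene's activity.

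Rtl8a, Rtl8b and Rtl8c are the near-identical copies among these genes, small Gag-derived genes that lie together on chromosome X. In the mm10 build Rtl8c spans X:53607922 to 53609135 on the plus strand, Rtl8a X:53642488 to 53643763 on the minus strand and Rtl8b X:53669165 to 53670437 on the minus strand, so that a read from a stretch that the copies share could have come from another copy. Their coding sequences were not compared here. The 250 bases before each start, from RefSeq (GRCm38.p6), are shown because the copies differed from each other in MidK; capitals mark runs of at least 12 bases that 2 of the 3 share.
Rtl8a, X:53643764 to 53644013, minus strand: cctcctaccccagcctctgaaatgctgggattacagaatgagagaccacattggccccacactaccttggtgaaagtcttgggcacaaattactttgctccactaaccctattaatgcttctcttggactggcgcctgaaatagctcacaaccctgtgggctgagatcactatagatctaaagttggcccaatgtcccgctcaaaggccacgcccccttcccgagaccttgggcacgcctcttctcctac
Rtl8b, X:53670438 to 53670687, minus strand: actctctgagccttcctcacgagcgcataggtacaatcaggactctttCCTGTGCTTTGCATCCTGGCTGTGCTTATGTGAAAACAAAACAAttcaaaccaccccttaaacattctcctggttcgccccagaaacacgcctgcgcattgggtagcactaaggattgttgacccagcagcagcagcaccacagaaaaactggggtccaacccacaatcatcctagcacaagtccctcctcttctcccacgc
Rtl8c, X:53607672 to 53607921, plus strand: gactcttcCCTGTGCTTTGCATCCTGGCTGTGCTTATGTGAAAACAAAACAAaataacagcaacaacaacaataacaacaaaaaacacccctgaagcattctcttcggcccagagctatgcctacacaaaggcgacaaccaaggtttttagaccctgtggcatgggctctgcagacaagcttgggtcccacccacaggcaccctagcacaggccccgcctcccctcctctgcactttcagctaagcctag

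Rtl8b and Rtl8c share 1 run of 44 bases there. The longest run that Rtl8a and Rtl8b share is 27 bases and lies past the start, outside the stretch shown, while Rtl8a and Rtl8c share at most 10 bases. Over the 300 bases that RefSeq gives per start (250 before and 50 after), global alignments had 66.7% of bases identical for Rtl8a and Rtl8b, 65.7% for Rtl8b and Rtl8c and 60.7% for Rtl8a and Rtl8c. The other 33 pairs among the 9 members with an entry had 53% to 60.7% and shared runs of 7 to 13 bases, so the pairs with Rtl8b stood above them and the pair of Rtl8a and Rtl8c did not. The 8 letters CCGGAAGT, searched on both strands, occur at the starts of Rtl8a and Rtl8b and in 2.87% of 1046 starts of chromosome X genes. It was 1 of 3 motifs searched. GGGCGG occurs at 1 of the 9 starts, that of Pnma3, and in 33.6% of all, and CACCC at 6 of the 9 and in 54.5%. A match is a run of letters only.

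Within these 250 bases the files listed 4 sites for Rtl8a, all in LowK, 6 for Rtl8b in MEF, LowK or both, and 1 for Rtl8c in MEF. MidK listed no site before any of the 9 starts, of which those RefSeq gives for Rtl9 and Pnma5 lie inside the gene's span. The share over all starts of the chromosome is not given here. At the MidK median over all genes, 0.673 sites per kb, few would be expected in these stretches. For the 3 genes with at least 2 listed sites there, the stretch around the 2 with the most reads (the lower coordinate in a tie) is shown in the direction of transcription, with the listed bases in capitals.
Rtl8a, X:53643804 to 53643848, minus strand: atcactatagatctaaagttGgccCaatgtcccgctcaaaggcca
Rtl8b, X:53670505 to 53670554, minus strand: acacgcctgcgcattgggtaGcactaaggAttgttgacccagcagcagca
Ldoc1, X:61709544 to 61709585, plus strand: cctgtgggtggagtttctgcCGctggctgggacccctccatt

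In the Rtl8a stretch, G53643824A and C53643828T (the B6 base, the position in mm10 and the variant base, all on the plus strand) each had 3 variant reads and 0 B6 reads in LowK, and MEF and MidK listed neither. In the Rtl8b stretch, T53670525A, 88 bases before the start, was listed with 2 variant reads in MEF and with 3 variant and 1 B6 read in LowK. C53670534G had 2 variant reads, in MEF only. In the Ldoc1 stretch, C61709564T and G61709565A are the neighbouring bases of 1 CpG, and each had 3 variant reads and 1 B6 read in LowK alone. These counts show how thin the evidence at a start is, at most 4 reads per site.

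The libraries held 883097, 295254 and 203350 reads by allele at listed sites in MEF, LowK and MidK, 2.14, 1.58 and 1.71 reads per site. A site is listed only where a variant read was found, so an unlisted site may have had B6 reads only or no read. To set libraries side by side, reads per 10000 were divided, and the ratio was put relative to the median gene of those tested. Without that step log2 ratios would be lower by 0.44 in MidK over MEF and by 0.56 in MidK over LowK, and higher by 0.09 in LowK over MEF. A gene was called when this ratio was at least 2-fold up or down, the exact 95% Poisson intervals of both libraries did not overlap and 1 of both had at least 30 reads. Intervals cover counting error only and are too narrow, because 1 read can cover several sites and is then counted at each. Of 8 pluripotency and germline genes 7 were called higher in LowK over MEF and 3 in MidK over MEF, and of 8 fibroblast and matrix genes 0 and 2 were called lower. In MidK over LowK 1 pluripotency and germline gene was called higher and 3 lower, and 1 fibroblast gene lower. Of 5 immune genes 1 was called higher in LowK over MEF and 1 lower in MidK over LowK, and 0 of 4 neural genes were called in any comparison. Over all genes tested, 7.32%, 9.64% and 8.73% were called higher and 6.3%, 9.73% and 11.8% lower in LowK over MEF, MidK over MEF and MidK over LowK. LSD1 reads are not expression, so these lists do not check the cells' identity.

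Rtl8b had 96 reads at 34 sites in MEF, 33 reads at 21 sites in LowK and 1 read at 1 site in MidK. Per 10000 reads this was 1.09 (95% interval 0.881 to 1.33) in MEF, 1.12 (0.769 to 1.57) in LowK and 0.0492 (0.00125 to 0.274) in MidK. MEF and LowK thus overlapped and MidK lay below both. The single MidK read was at G53673809T, on the upstream side of the gene. Relative to the median gene, MidK over MEF was 0.0615 (0.00154 to 0.351) and MidK over LowK was 0.0648 (0.00159 to 0.387), both called lower, while LowK over MEF was 0.967 (0.631 to 1.45).

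Rtl8c differed in both day 20 libraries. It had 68 reads at 22 sites in MEF, 69 at 29 sites in LowK and 1 at 1 site in MidK, or 0.770 (0.598 to 0.976), 2.34 (1.82 to 2.96) and 0.0492 (0.00125 to 0.274) per 10000 reads. All 3 intervals lay apart, with LowK highest and MidK lowest. The ratio of LowK over MEF was 2.86 (2.01 to 4.05), called higher, and that of MidK over MEF was 0.0868 (0.00217 to 0.49999), called lower. MidK over LowK was 0.0310 (0.000774 to 0.179), and 1 of the 905 genes tested had a lower ratio. In LowK, 24 of its reads lay at 7 sites in the gene body, from C53608700G to T53608830C, with 3 or 4 reads each, a stretch short enough for 1 read to cover several of them. The flanks held 45 reads in LowK and 66 in MEF, which alone would lie under 2-fold, so the call in LowK over MEF depends on this stretch. The MidK read was at A53604543C, before the gene.

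Rtl8a, the copy between them, was called in no comparison. It had 92 reads at 36 sites in MEF, 26 at 21 sites in LowK and 19 at 11 sites in MidK. Per 10000 reads these were 1.04 (0.840 to 1.28), 0.881 (0.575 to 1.29) and 0.934 (0.563 to 1.46), and all 3 intervals overlapped. The ratios were 0.795 (0.494 to 1.24) in LowK over MEF and 1.22 (0.702 to 2.01) in MidK over MEF, and MidK over LowK had too few reads to be tested. Of the 19 MidK reads, 8 were at 1 site, A53647245G, with 5 B6 and 3 variant reads. MidK over MEF depended on the sites counted: it was 0.704 (0.340 to 1.32) without the deepest 1% of sites, 0.352 (0.0418 to 1.32) from 2 and 71 reads at a reliability score of at least 20, and 2.25 (1.15 to 4.22) with 1 site kept in each 300 bp. None of these was called, and the direction turned in the first 2, so the difference of Rtl8a from the other copies in MidK rests in part on that site.

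**Figure D1:**
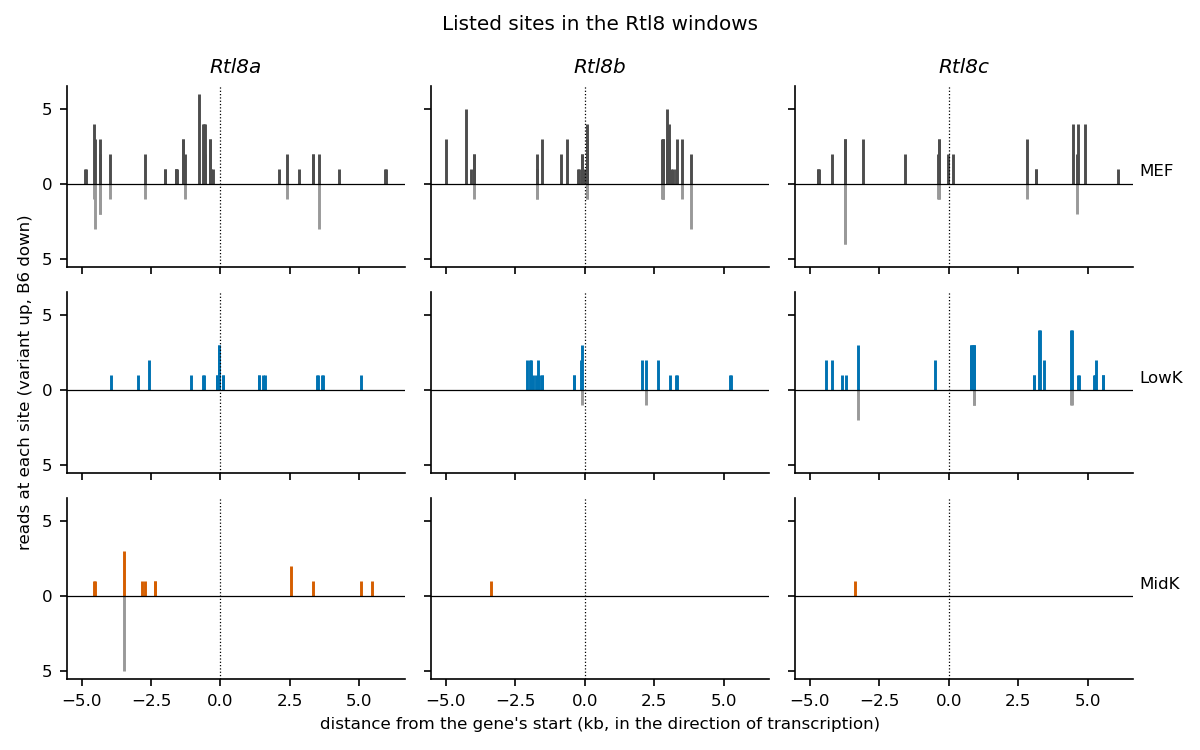
Listed single-base sites in the windows of Rtl8a, Rtl8b and Rtl8c (columns) in the 3 libraries (rows). The horizontal axis is the distance from the gene's start in kb in the direction of transcription, and lines show reads at each site, variant reads upward and B6 reads downward in grey; MidK has 1 site with 1 read in each of the Rtl8b and Rtl8c windows and 11 sites in that of Rtl8a.

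The gene bodies of the copies held 11 of their 256 reads in MEF, 26 of 128 in LowK, 24 of them in Rtl8c, and 0 of 21 in MidK. Over the 3 gene bodies, 3.76 kb in all, MEF listed 3 sites, LowK 9 and MidK 0, against 89, 62 and 13 sites in the flanks. Per kb this was 0.797 in the bodies and 2.97 in the flanks in MEF, 2.39 and 2.07 in LowK, and 0 and 0.433 in MidK. The share of reads that shared sequence kept from being placed was not tested. In MEF and MidK sites were sparser in the bodies than in the flanks, and in LowK they were not. Of the 9 LowK body sites, 7 were in Rtl8c, and at the MidK density few sites would be expected in 3.76 kb. In MEF, sites were also sparser in the body for Rtl3 (2.60 against 4.2 per kb) and Rtl5 (2.94 against 4.6). The same held for Ldoc1 (2.99 against 4.8) and Pnma5 (3.31 against 4.4), but not for Rtl4, Rtl9 and Pnma3.

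MidK values varied along the Rtl8 cluster, X:53602922 to 53675437. From the lower edge of the Rtl8c window to the upper edge of the Rtl8b window MEF had 491 reads, LowK 183 and MidK 69, and MidK over MEF was 0.829 (0.635 to 1.07). The 3 windows together gave 256, 128 and 21 reads and a ratio of 0.484 (0.294 to 0.756). The sequence between the windows gave 235, 55 and 48 reads and a ratio of 1.21 (0.864 to 1.65), so the intervals of windows and gaps did not overlap for MidK over MEF. For LowK over MEF the order was the other way, 1.41 (1.13 to 1.75) in the windows and 0.659 (0.482 to 0.887) between them. In bins of 5 kb along the cluster, the highest MidK value, 1.18 reads per 10000, was in the bin from -15 to -10 kb of the start of Rtl8a, between windows, where MEF had 0.476. This bin held 24 of the 48 MidK reads between the windows and 42 of the 235 MEF reads. Without it the ratio of the gaps would fall below 1, so the difference between windows and gaps depends on this bin. Whether the intervals would stay apart without it was not tested. Other bins between windows varied. MidK and MEF had 1 and 48 reads from -20 to -15 kb, 0 and 26 from 10 to 15 kb, and 8 and 21 from 5 to 10 kb. The highest LowK bin, with 1.59, ran from -35 to -30 kb, inside the Rtl8c window, where MEF had 0.249 and MidK had 0 reads, which allows up to 0.148 per 10000. These bins were chosen with their values known.

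**Figure D2:**
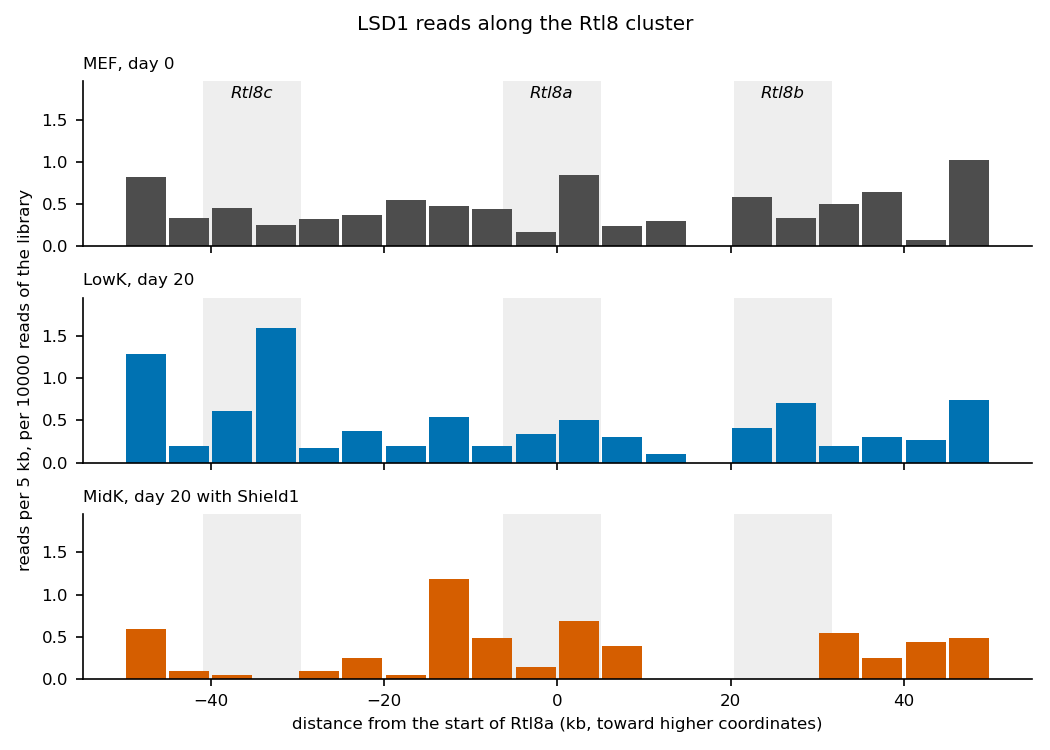
LSD1 reads at listed sites along the Rtl8 cluster in bins of 5 kb, per 10000 reads of each library, against the distance from the start of Rtl8a in kb; grey bands are the windows of Rtl8c, Rtl8a and Rtl8b from left to right. MidK bars are absent or low in the Rtl8c band and in the Rtl8b band up to 30 kb. The bar from 30 to 35 kb, partly inside the Rtl8b band, is 0.541 beside 0.498 in MEF. MidK reaches 1.18 between the Rtl8c and Rtl8a bands.

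Among the single-copy Rtl genes, Rtl3 and Rtl5 were low in MidK. Rtl3 (X:106837082 to 106840539, minus strand) encodes a Gag-like protein with a zinc finger. MEF had 110 reads at 51 sites, LowK 38 at 19 and MidK 6 at 5, or 1.25 (1.02 to 1.50), 1.29 (0.911 to 1.77) and 0.295 (0.108 to 0.642) per 10000. MEF and LowK overlapped, and MidK lay below both. MidK over MEF was 0.322 (0.116 to 0.723), called lower, and MidK over LowK was 0.338 (0.117 to 0.805), which was not called relative to the median gene because the Poisson intervals overlapped. In LowK, 21 of the reads were in the gene body, among them 7 at T106838440C, its deepest site.

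Rtl5 (X:102066542 to 102071307, minus strand), which in mice has a role in the response of brain microglia to foreign RNA, lies inside Nhsl2, a long gene of actin regulation. It had 153 reads at 60 sites in MEF, 63 at 41 sites in LowK and 13 at 12 sites in MidK, or 1.73 (1.47 to 2.03), 2.13 (1.64 to 2.73) and 0.639 (0.340 to 1.09) per 10000. MidK was again the lowest, and all 13 of its reads were variant reads. MidK over LowK was 0.441 (0.223 to 0.810), called lower, and MidK over MEF, at 0.501 (0.261 to 0.883), lay just short of 2-fold and was not called. With library totals MidK over MEF was 0.369 and called. In the gene body alone Rtl5 was not low in MidK, at 8 reads against 14 in LowK and 38 in MEF, a ratio to LowK of 1.14 with too few reads to be tested, and the flanks held 5, 49 and 115. Nhsl2 around it had ratios of 0.816 (0.712 to 0.931) in MidK over MEF and 0.590 (0.511 to 0.679) in MidK over LowK.

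Rtl9 and Rtl4 are the long members, and most of their sites lie in the gene body. Rtl9 (X:143058276 to 143105330), a further Gag-derived gene of microglia, had 388 reads at 183 sites in MEF, 171 at 114 sites in LowK and 57 at 47 sites in MidK. Its levels were 4.39 (3.97 to 4.85), 5.79 (4.96 to 6.73) and 2.80 (2.12 to 3.63) per 10000, with all 3 intervals apart before the median gene was taken into account. Relative to the median gene the ratios were 1.24 (1.03 to 1.49) in LowK over MEF, 0.867 (0.644 to 1.15) in MidK over MEF and 0.713 (0.519 to 0.967) in MidK over LowK, and none reached 2-fold. MidK over LowK was called lower with library totals, at 0.484, in the gene body alone, at 0.443 (0.285 to 0.666), and at a reliability score of at least 20, at 0.350 (0.155 to 0.697). At that score MidK over MEF was called lower too, at 0.403 (0.182 to 0.777).

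Rtl4 (X:144688209 to 145122414), a zinc-finger gene linked in mice to noradrenaline in the brain, had by far the most reads because its window is long. It had 2482 reads at 1234 sites in MEF, 803 at 530 sites in LowK and 571 at 347 sites in MidK, or 28.1 (27.0 to 29.2), 27.2 (25.3 to 29.1) and 28.1 (25.8 to 30.5) per 10000. The 3 shares overlapped. Relative to the median gene MidK over MEF was 1.36 (1.24 to 1.49), LowK over MEF was 0.910 (0.840 to 0.986) and MidK over LowK was 1.52 (1.36 to 1.70), none of them called. In 4 equal parts of the gene, from the lower to the higher coordinate, MidK over MEF was 1.71 (1.42 to 2.06), 1.03 (0.848 to 1.25), 1.53 (1.27 to 1.84) and 1.31 (1.08 to 1.58). LowK over MEF in the same parts was 1.16, 0.829, 1.06 and 0.690, so the parts of this 1 gene differed from each other too.

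Ldoc1, a regulator of hormone-producing cells of the placenta, and the Pnma genes were called in no comparison of window reads. Ldoc1 (X:61709611 to 61710950, plus strand) had 130, 39 and 27 reads in the MEF, LowK and MidK libraries, or 1.47 (1.23 to 1.75), 1.32 (0.939 to 1.81) and 1.33 (0.875 to 1.93) per 10000. Its ratios were 0.844 (0.574 to 1.22) in LowK over MEF, 1.23 (0.778 to 1.87) in MidK over MEF and 1.48 (0.872 to 2.48) in MidK over LowK. In MidK, 9 of its 27 reads were at 1 site, G61714212A, with 7 B6 and 2 variant reads.

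Pnma3 (X:73064787 to 73068191, plus strand) had 107, 36 and 15 reads, or 1.21 (0.993 to 1.46), 1.22 (0.854 to 1.69) and 0.738 (0.413 to 1.22) per 10000. Its ratios of 0.947, 0.827 and 0.891 were not called, and all 3 intervals overlapped. MidK over MEF was 0.260 (0.0306 to 0.990) in the gene body alone, from 2 and 49 reads, and 1.24 (0.827 to 1.80) with 10 kb flanks, neither called. Pnma5 (X:73033981 to 73039721, minus strand), whose body overlaps the noncoding gene Gm52421, had 145, 53 and 39 reads, or 1.64 (1.39 to 1.93), 1.80 (1.34 to 2.35) and 1.92 (1.36 to 2.62) per 10000. Its ratios were 1.03 (0.736 to 1.42) in LowK over MEF, 1.59 (1.08 to 2.27) in MidK over MEF and 1.57 (1.01 to 2.43) in MidK over LowK. The gene body alone held 49, 42 and 19 reads in the same order, with ratios to MEF of 2.55 in LowK and 2.47 in MidK, both called higher. The flanks held 96, 11 and 20 reads. From gene bodies alone, 83 of 816 genes of the chromosome were called higher in LowK over MEF and 79 of 809 in MidK over MEF.

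**Figure D3:**
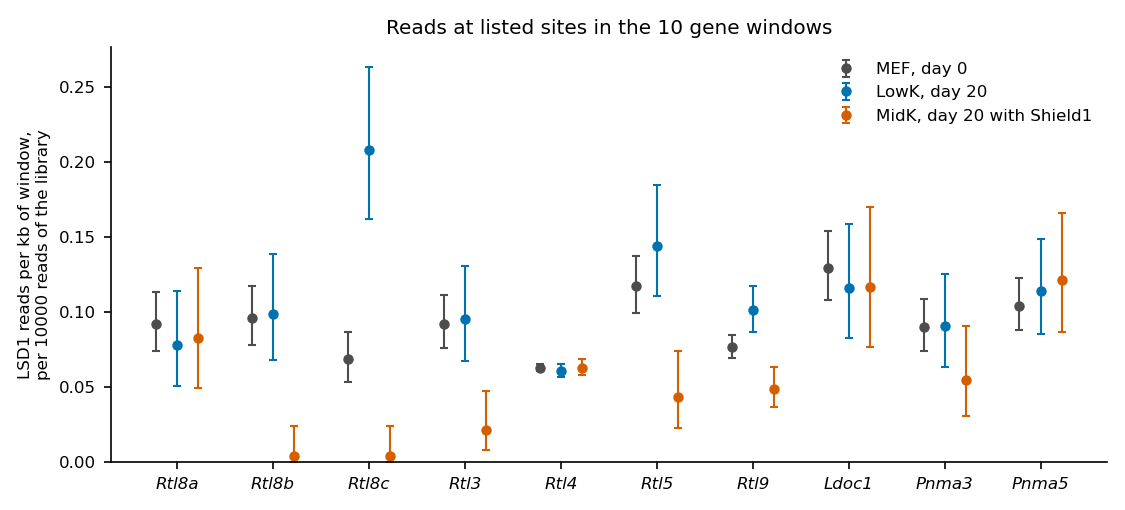
Reads at listed sites per kb of window and per 10000 reads of the library for the 10 genes, with exact 95% Poisson intervals that cover counting error only; the libraries are MEF, LowK and MidK. Rtl8c in LowK stands above its MEF level, Rtl8b, Rtl8c, Rtl3, Rtl5 and Rtl9 in MidK lie below both other libraries, and the 3 libraries overlap for Rtl8a, Rtl4, Ldoc1, Pnma3 and Pnma5.

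Per kb of window, the order of the genes within a library was largely unresolved. In MEF it ran from Ldoc1, with 11.5 reads per kb (9.58 to 13.6), through Rtl5 with 10.4 and Pnma5 with 9.21 down to Rtl8c with 6.06 and Rtl4 with 5.59 (5.37 to 5.81). In LowK Rtl8c led with 6.15 reads per kb (4.79 to 7.79), followed by Rtl5 with 4.27, and Rtl4 was last with 1.81. In MidK Pnma5, with 2.48 (1.76 to 3.39), and Ldoc1, with 2.38, led, and Rtl8c, with 0.0892, and Rtl8b, with 0.0887, were last. In each library all 9 pairs of neighbours in the order had overlapping intervals. The median of the 10 genes was 8.17, 2.96 and 1.06 reads per kb in MEF, LowK and MidK, beside 6.15, 2.03 and 0.999 over all 1255 genes.

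Set against fibroblasts, LowK had 1 of the 10 genes called higher, Rtl8c, and 0 called lower, where 7.32% of the 1079 genes tested were called higher and 6.3% lower. The median log2 ratio was -0.04 over the 10 genes and 0.01 over all tested. The share of 1 in 10 lay near the background. With only 1 site kept in each 300 bp, with its reads, Rtl8c had a ratio of 1.67 and was not called, and with 10 kb flanks it had 1.75 and was not called. In the first of these settings 33 of 941 genes of the chromosome were called higher. In the gene body alone Rtl8c had too few reads to be tested, 24 in LowK and 2 in MEF.

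MidK over MEF had 0 of the 10 genes called higher and 3 called lower, Rtl8b, Rtl8c and Rtl3, where 9.64% of 1079 genes were called higher and 9.73% lower. The median log2 ratio was -0.24, beside 0.01 over all tested. None of the 3 calls was kept with 1 site per 300 bp, where fewer reads are left and the ratios were 0.167 for Rtl8b, 0.132 for Rtl8c and 0.450 for Rtl3. Rtl8b then had too few reads to be tested, and over the chromosome 10 of 939 genes were called lower. With 10 kb flanks Rtl8c was called at 0.233, and Rtl8b, at 0.654, and Rtl3, at 0.564, were not. At a reliability score of at least 20, 3 genes were called lower again, but they were Rtl8b, Rtl5, at 0.208, and Rtl9, at 0.403. Rtl3 was then at 0.294 and not called, and Rtl8c, with 0 and 30 reads, gave no call. Over the chromosome 155 of 1010 genes were called lower at that score. Scaled to library totals, 48 genes of the chromosome were called higher and 230 lower in place of 104 and 105, and of the 10 genes 4 were called lower, Rtl5 being added.

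MidK over LowK, which differ in Shield1, had 0 of 9 tested genes called higher and 3 called lower, Rtl8b, Rtl8c and Rtl5, where 8.73% of 905 genes were called higher and 11.8% lower. The median log2 ratio was -0.49, beside 0.00 over all tested. With 1 site per 300 bp the 3 ratios were 0.130, 0.0793 and 0.365. Rtl8b and Rtl8c then had too few reads to be tested, and Rtl5 was not called. Over the chromosome 21 of 565 genes were called lower in that setting. With 10 kb flanks only Rtl8c was called, with ratios of 0.793 for Rtl8b and 0.627 for Rtl5. Library totals gave 24 genes higher and 264 lower over the chromosome in place of 79 and 107, and 5 of the 9 genes lower, Rtl3 and Rtl9 being added. At a reliability score of at least 20 the 3 called lower were Rtl8c, Rtl5 and Rtl9, with too few reads for Rtl8b (0 and 21). Only 4 of the members were tested at that score, and over the chromosome 109 of 627 genes were called lower. In the gene body alone the 1 called lower was Rtl9, where 87 of 606 genes of the chromosome were called lower. The comparisons share libraries, so the MidK reads of Rtl8b and Rtl8c, 1 each, enter both.

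**Figure D4:**
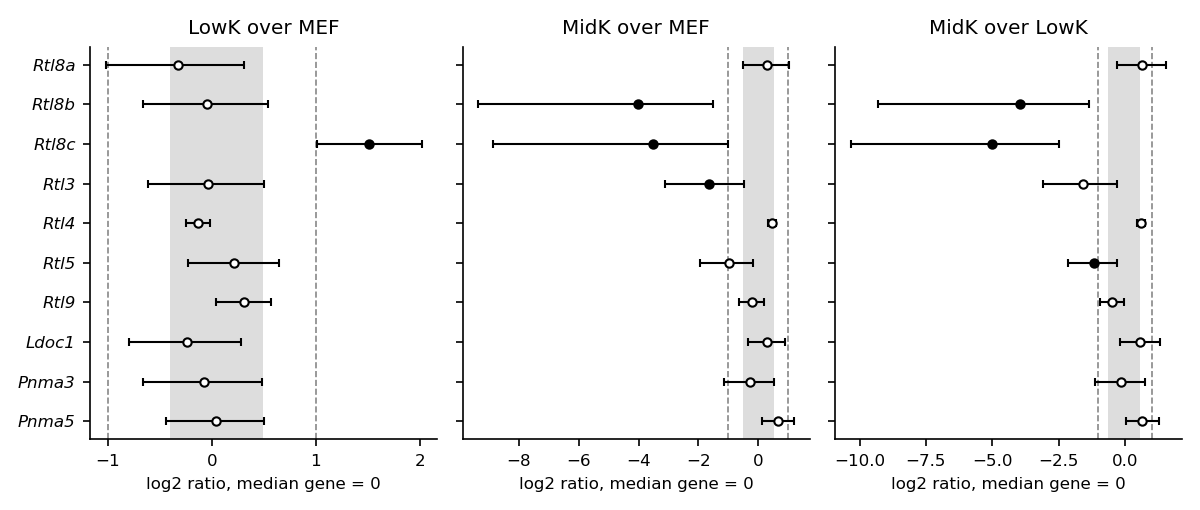
Log2 ratio of reads in each gene's window, relative to the median gene, for LowK over MEF, MidK over MEF and MidK over LowK; bars are 95% counting intervals, filled points met the rule for a call, dashed lines mark 2-fold, the grey band is the interquartile range of all tested genes, and the horizontal scales differ. Filled points are Rtl8c on the left, Rtl8b, Rtl8c and Rtl3 in the middle, and Rtl8b, Rtl8c and Rtl5 on the right.

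Averaged over 50 kb on each side, the sequence around Rtl8b, Rtl8c and Rtl3 was not low in MidK. In the 50 kb beyond each side of the window, MidK over MEF was 1.28 (1.07 to 1.52) around Rtl8b, 1.08 (0.855 to 1.35) around Rtl8c and 1.57 (1.31 to 1.87) around Rtl3, each interval apart from that of the gene's window. Nearer to Rtl8c part of the sequence was low as well. With 10 kb flanks, the window included, MidK had 5 reads and MEF 121. The bins from -45 to -40, -30 to -25 and -20 to -15 kb of the start of Rtl8a had few MidK reads. Per 10000 these were 0.0984, 0.0984 and 0.0492, beside 0.340, 0.328 and 0.544 in MEF. The bins from -45 to -40 and -30 to -25 kb partly cover the Rtl8c window. Other bins near it differed less: from -25 to -20 kb MidK had 0.246 beside 0.374 in MEF. From -50 to -45 kb MidK had 0.590 beside 0.815. Around Rtl5, in the 50 kb beyond each side, MidK over MEF was 0.802, with an interval that overlapped the gene's own. Around Pnma5 it was 0.633 (0.499 to 0.793), below the window's 1.59 (1.08 to 2.27). This surrounding sequence can hold windows of other genes, for Rtl8b and Rtl8c that of Rtl8a. The stretch between Rtl8c and Rtl8b is counted in the surroundings of both, so their ratios are not independent. It includes the bin from -15 to -10 kb of the start of Rtl8a, with 24 MidK reads. The protein-coding neighbours of the Rtl8 cluster are 4933416I08Rik, with 27, 19 and 5 reads and too few to be tested, and Ct55, with 103, 56 and 14 reads and ratios of 1.53 in LowK over MEF and 0.802 in MidK over MEF, not called. Lpar4, a lysophosphatidic acid receptor gene next to Rtl3, had 0.617 (0.344 to 1.03) in MidK over MEF, and Gm5127 on its other side 1.59 (1.37 to 1.85), neither called, though Gm5127 was called higher in MidK over LowK at 2.14 (1.77 to 2.58).

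Next to the Pnma genes, Xlr4a was called lower in MidK over MEF at 0.331 (0.105 to 0.803), with 89, 34 and 5 reads, and Zfp185 in MidK over LowK at 0.451 (0.326 to 0.612), with 522, 242 and 51 reads. Xlr4a belongs to a multicopy family, so its reads are uncertain. Beside Rtl9, Ammecr1 was called lower in LowK over MEF at 0.326 (0.259 to 0.406), where Rtl9 itself had 1.24. Beside Rtl4, Lhfpl1 was called lower in LowK over MEF at 0.454 and higher in MidK over LowK at 2.36, while Trpc5, a cation channel gene that ends 29 bp from Rtl4, had 0.715 and 1.62 and was not called. Chrdl1, on the other side of Rtl9, Pin4, beside Rtl5, and Gm4988 and 4933402E13Rik, on the sides of Ldoc1, were called in none of the comparisons.

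Other Gag-derived genes of the chromosome gave no call. Zcchc12 and Zcchc18, zinc-finger relatives of the Pnma genes, were found in the RefSeq table, and Pnma6e and Pnma6f were not found there by these names. Zcchc12 had 87, 52 and 10 reads in the MEF, LowK and MidK libraries and ratios of 1.68 (1.17 to 2.40) in LowK over MEF and 0.678 (0.314 to 1.31) in MidK over MEF. Its MidK over LowK ratio was 0.411 (0.186 to 0.818), below the 0.441 of Rtl5, but was not called. Zcchc18 had 95, 48 and 21 reads and ratios of 1.42 (0.983 to 2.03), 1.30 (0.772 to 2.11) and, in MidK over LowK, 0.936 (0.532 to 1.59).

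By the distance between pairs of log2 ratios (LowK over MEF and MidK over MEF, 0.5 read added), over 3 libraries and 1069 other genes with at least 30 MEF reads, the patterns nearest to Rtl8b were those of Btbd35f25, with 120, 49 and 2 reads and a distance of 0.48, and Prr32, with 39, 19 and 0. Nearest to Rtl8c were Gm38474, with 30, 27 and 0 reads, and Gm14692, with 47, 47 and 1. Nearest to Rtl3 were Tslrn1, with 284, 104 and 16, and Magea3, with 189, 65 and 10, and nearest to Rtl5 were Maged1, with 166, 73 and 14, and Tmsb15b1, with 54, 21 and 4. Btbd35f25 and Magea3 are members of multicopy families.

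The lists of the 3 libraries shared few sites at these genes. The overlap at other genes is not given here, so a small overlap cannot be called particular to the members. Of 2806 sites listed in any library, 173 were in both MEF and LowK (9.76% of the MEF and 20.4% of the LowK sites), 61 in both MEF and MidK (3.44% and 13.2%) and 6 in all 3. These 6 were A144688959G, A144854520G and C144989367T in Rtl4, A143087999G in Rtl9, A61709235G in the flank of Ldoc1 and A73064501C in the flank of Pnma3. Only A144688959G and A73064501C had any B6 read. A ratio between libraries thus compares mostly different sites of the same window, and at sites listed in all 3 libraries 0 of the 10 genes had enough reads to be tested.

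By allele, variant reads made up 85.9% (95% Clopper-Pearson interval 84.7% to 87.0%) of the reads in the windows in MEF, 91.4% (89.7% to 92.8%) in LowK and 81.8% (78.9% to 84.5%) in MidK. At the other listed sites of the chromosome the shares were 85.8%, 90.1% and 81.1%, inside each of these intervals. All 3 intervals of the windows lay apart from each other, in the same order as elsewhere. Without Rtl4, which held most of the reads, they were 84.5% (82.4% to 86.4%), 92.0% (89.4% to 94.2%) and 78.7% (71.9% to 84.4%), and MEF and MidK overlapped. Since listing needs a variant read, these shares are not those of the chromosomes.

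A gene was called by allele when shares differed by at least 10 percentage points with intervals apart and at least 30 reads in both libraries. Rtl9 was called higher in LowK, with 165 variant and 6 B6 reads (96.5%, 92.5% to 98.7%), over MEF, with 331 and 57 (85.3%, 81.4% to 88.7%). It was 1 of 9 members tested, where 11.1% of 884 genes were called higher and 1.58% lower (12.7% in either direction). With a reliability score of at least 20 (94.2% against 85.7%), or with insertions and deletions included (94.1% against 85.7%), the difference was under 10 points and not called. Pnma5 was called lower in MidK, with 22 variant and 17 B6 reads (56.4%, 39.6% to 72.2%), than in MEF, with 128 and 17 (88.3%, 81.9% to 93.0%). It was 1 of 3 members tested, where 14.9% of 565 genes were called lower and 3.72% higher (18.6% in either direction). In MidK over LowK 0 of 3 members were called, where 0.368% of 544 genes were called higher, 21.9% lower and 22.2% in either direction. With 1 site kept in each 300 bp, in the gene body alone and with a reliability score of at least 20, Pnma5 had too few reads in MidK to be tested. The MidK and MEF shares were then 75% and 89.6%, 42.1% and 87.8%, and 76.9% and 86.9%, so the gap was smaller in the first and the last and wider in the gene body.

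The 17 B6 reads of Pnma5 in MidK were at 4 sites. C73038692A had 3 B6 and 2 variant reads, C73038694T and G73038708A had 4 and 2 each, and G73041239A had 6 and 2. The first 3 lie so close together that the same reads may be counted at each. MEF and LowK listed none of these 4 sites. Where both alleles had 2 or more reads at a site of the 10 windows, B6 reads were the majority at 18, variant reads at 3 and neither at 8 in MidK. The same counts were 46, 35 and 46 in MEF and 6, 5 and 8 in LowK. Such sites made up 7.16%, 2.24% and 6.29% of the windows' sites in MEF, LowK and MidK, beside 7.38%, 3.01% and 6.59% elsewhere on the chromosome. Of the 18 MidK sites with a B6 majority, 12 were in the Rtl4 window and 4 were those of Pnma5. Which allele had the majority at such sites elsewhere is not given here, so the 18 cannot be called particular to the windows.

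**Figure D5:**
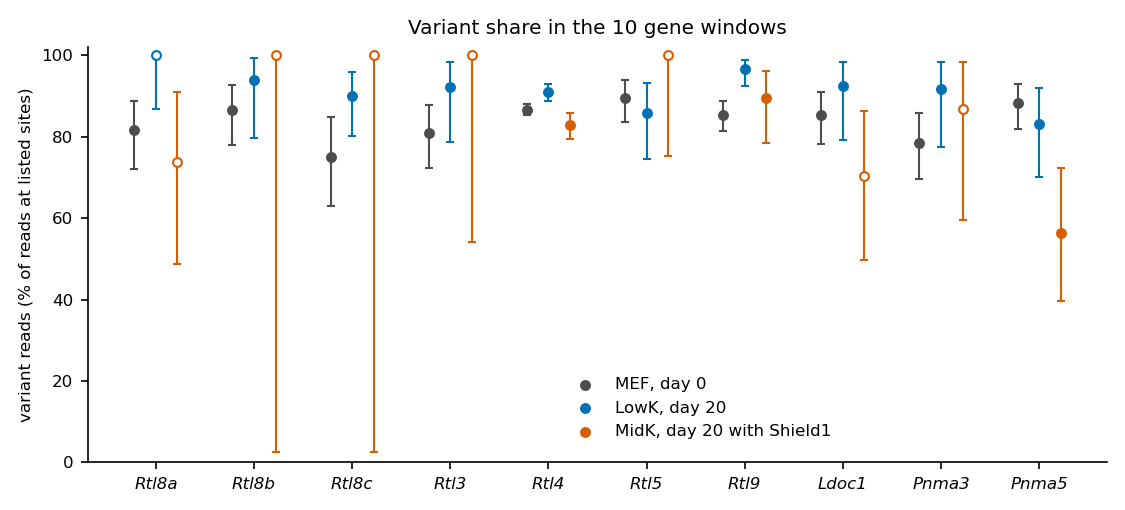
Variant reads as a percent of reads at listed sites in the 10 windows, for MEF, LowK and MidK, with 95% Clopper-Pearson intervals; open points have fewer than 30 reads. Rtl9 in LowK (96.5%) lies above MEF (85.3%), Pnma5 in MidK (56.4%) lies below MEF (88.3%), and the intervals of Rtl8b and Rtl8c in MidK, with 1 read each, span almost the whole range.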

How the data were processed

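LSD1 chromatin from 3 mouse samples, 1 library per group, was analysed on chromosome X. BWA and the build mm10 are named in the submitters' processing notes, and the series' design text in the labels names bcftools mpileup for the variants. The sources used here do not give versions, filters or the treatment of duplicates. Per the file headers, the deposited counts are reads with the B6 base and reads with the variant base, for every position that the authors list. The column headed reliability, a deposited score that in the MidK file has another prefix than the other columns, was used in 1 alternative only.

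Single-base entries were kept; others made up 6.97%, 6.13% and 5.56% of the MEF, LowK and MidK lists. Genes and the sequences printed came from RefSeq tables of GRCm38.p6, the assembly called mm10; at all 1733 listed sites inside their promoter entries the B6 base matched. All 10 members were found, 9 with a promoter entry. Reads were summed per window with python 3.11.15, pandas 2.3.3 and numpy 2.4.6, intervals computed with scipy 1.17.1 and promoters aligned with biopython 1.88. Calls followed the size rules given with the results, applied to all genes of the chromosome, and the rule for reads was run on simulated data. The simulation drew independent Poisson counts per gene, so it does not cover reads that are counted at several sites. With 1 library per group there is no p-value.

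Named genes were the members, their nearest protein-coding neighbours, 4 other Gag-derived genes and, for each member called by reads, the 2 genes of nearest pattern. Alternatives covered the scale, the sites and entries counted, the window and the minimum of reads. Members, lists and rules were chosen with earlier results of these data known.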

Additional observations from a re-analysis of the deposited data

How the results depend on the processing

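Most calls of reads depended on the sites counted. In LowK over MEF the 1 gene called higher became 0 with 1 site per 300 bp, whether its reads were summed or each site counted once, and 0 with 10 kb flanks. In the gene body alone 1 gene was called higher again, but it was Pnma5 in place of Rtl8c, where 83 of 816 genes of the chromosome were. Rtl8c then had too few reads to be tested, 24 in LowK and 2 in MEF. In MidK over MEF the 3 genes called lower became 0 under both forms of 1 site per 300 bp and in the gene body alone, and 1 with 10 kb flanks. In the gene body alone 1 gene, Pnma5, was called higher, where 79 of 809 genes of the chromosome were. In MidK over LowK the 3 called lower became 5 with library totals, 0 under both forms of 1 site per 300 bp and 1 with 10 kb flanks (Rtl8c). In the gene body alone 0 of the 3 was called and 1 other gene, Rtl9, was, where 87 of 606 genes of the chromosome were called lower. In the same comparison 1 gene, Rtl4, was called higher at a reliability of at least 20, where 113 of 627 genes were. At that reliability 3 genes were called lower in both MidK comparisons, with other genes among them. Over MEF these were Rtl5 and Rtl9 in place of Rtl8c and Rtl3, and over LowK Rtl9 in place of Rtl8b. Over the chromosome 155 of 1010 genes were then called lower over MEF and 109 of 627 over LowK. Only 4 members were tested over LowK. Rtl5 in MidK over LowK turned to 1.14 in the gene body alone. By variant share, the 1 gene called in LowK over MEF became 2 with 10 kb flanks and 0 with a reliability of at least 20 or with insertions and deletions. The 1 called in MidK over MEF became 0 with 1 site per 300 bp, in the gene body alone and at that reliability, and the 0 in MidK over LowK became 1 with 1 site per 300 bp, 1 with 10 kb flanks and 1 at that reliability. Thinning and the gene body alone leave fewer reads, and the cause of the other changes was not tested. With 1 site per 300 bp and its reads summed, 10 of 939 genes of the chromosome were called lower in MidK over MEF. In MidK over LowK 21 of 565 were, and only 3 members were tested. A member with too few reads to be tested counts as a lost call. Over all windows the variant share moved to 100%, 88.9% and 84.6% in MEF, LowK and MidK where only sites common to the 3 lists were counted, to 84.4%, 87.9% and 77.3% at a reliability of at least 20, and to 85.1% in MidK without the deepest 1% of sites. Of the ratios of single genes under all alternatives, 198 kept their call or stayed inside the counting interval, 24 lost a call, 11 gained one, 32 moved without one and 1 reversed. No paired analysis was possible because each group has 1 library. Depth limits MidK most: 3 reads, the limit for a count of 0, are 0.148 per 10000 reads there, 0.102 in LowK and 0.0340 in MEF.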

Other observations

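Insertions and deletions, which the values above leave out, were listed at 111 positions of the 10 windows in MEF, 45 in LowK and 32 in MidK, with 256, 86 and 44 reads. Per 10000 reads of the library these were 2.90 (95% Poisson interval 2.55 to 3.28), 2.91 (2.33 to 3.60) and 2.16 (1.57 to 2.90), and all 3 intervals overlapped. Transitions made up 62.2% of the windows' single-base sites in MEF, 58.5% in LowK and 62.3% in MidK, beside 61.8%, 61.9% and 59.7% elsewhere on the chromosome. In the 300 bases at the starts of the 9 members with a promoter entry, CpG dinucleotides numbered from 1 for Rtl9 and Pnma5 to 15 for Ldoc1 and 20 for Rtl5, beside a median of 7 over 1046 starts.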
